A study of Homo sapiens with 6 samples.

Results

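REST and the genes around it were examined in UE7T-9 cells, a human mesenchymal stem cell line from bone marrow, with and without SRRM4 knockout. The set holds 10 of the 58735 genes in the count table, picked by gene name. It comprises the repressor REST, its corepressors RCOR1 and RCOR2, and the 7 neuronal genes STMN2, SYP, SNAP25, SYN1, CHGA, SCG2 and VGF. Of the 10 genes, 4 (REST, RCOR1, SNAP25 and SCG2) had enough counts to be tested, 5 had only a few counts, and STMN2 had none. RCOR1 rose modestly in SRRM4 KO cells. REST, SCG2 and SNAP25 did not pass the test, and no member passed beyond a log2 fold change of 1.

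The control libraries came from UE7T-9 cells of wild-type genotype. The SRRM4 KO libraries came from UE7T-9 cells infected with a lentiviral CRISPR vector carrying an SRRM4 guide, selected with puromycin and cloned at 1 cell per well, so that the knockout group stands for 1 clone. The study states that a complete loss of SRRM4 protein was not reached in this line. Its methods describe no vector for the control cells, while its discussion mentions lentiviral infection as a possible influence on them. Each group had 3 libraries of non-stranded mRNA-seq. Nothing in the labels says that these came from separate cultures, so the p-values measure the spread between libraries, which may be technical.

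REST is a zinc finger protein that binds the RE1 element (also called NRSE) near many neuronal genes and keeps them silent outside neurons. It recruits SIN3 with histone deacetylases at one end and CoREST (RCOR proteins) with the demethylase KDM1A at the other. SRRM4 is a splicing factor of neurons. There it promotes the inclusion of a small exon in REST mRNA, which shortens the protein to the form REST4, and this relieves the repression of neuronal genes. Mesenchymal cells normally have REST and lack most products of its target genes.

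The small REST exon is shown because it is the point at which SRRM4 is known to act on this pathway. In GENCODE release 29 (GRCh38) it lies between exon 3 and exon 4 of REST, at chr4:56927615-56927664 on the plus strand, and has 50 bases. The capitals mark an in-frame stop codon at 56927653 to 56927655.

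REST exon: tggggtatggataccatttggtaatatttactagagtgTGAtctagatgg

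With this exon the annotated reading frame has 340 codons, against 1097 codons for the longest REST protein. The start of the exon is shared by 3 of the 12 annotated REST transcripts. The exon makes up 0.626% of the 7983 bases that the table gives for REST, so a count per gene cannot show whether it was included. The forms of REST were not analysed here.

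The RE1 element is shown because REST is known to act on neuronal genes through it. The promoter windows of RefSeq (GRCh38.p14; 250 bases before to 50 bases after the start) were searched on both strands for TTCAGCACC and GGACAGCGC with 2 bases between them. A window was counted as holding the motif with at least 14 of these 18 letters. Of the members, REST, RCOR1, SYP, SYN1, CHGA and VGF had an entry in this table, and RCOR2, STMN2, SNAP25 and SCG2 did not. SYN1 and VGF held the motif with 17 letters each. Of 25 other neuronal REST targets with an entry, GRIA2 (18 letters), CELSR3 (15) and SCAMP5 (14) held it. The capitals below mark letters identical to the motif, each sequence is read on the motif's strand, and the number in the next paragraph is where the match begins relative to the start.

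SYN1: TTCAGCACCgcGGACAGtGC
VGF: TTCAGCACgctGGACAGCGC
GRIA2: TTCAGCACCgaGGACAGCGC
CELSR3: TTCAGCACCagGagCAaCGC
SCAMP5: actAGCACCtcGGACAGCtC

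The SYN1 match lies at chrX:47620071-47620090 on the minus strand, from position -233, and the VGF match at chr7:101165559-101165578 on the plus strand, from position -9. The GRIA2 match lies at chr4:157220389-157220408 (minus strand, from -230), the CELSR3 match at chr3:48663015-48663034 (minus strand, from -148) and the SCAMP5 match at chr15:74995386-74995405 (plus strand, from -177). Of all 35116 promoter windows, 231 (0.658%) held a match of at least 14 letters and 9 (0.0256%) one of at least 17. Counted by gene, as the members are, 224 of 27305 genes (0.8204%) had a window with at least 14. The best matches of REST, RCOR1, SYP and CHGA had 13 letters or fewer. A match is a description of these letters, and its absence says only that they are not in this window.

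**Figure D1:**
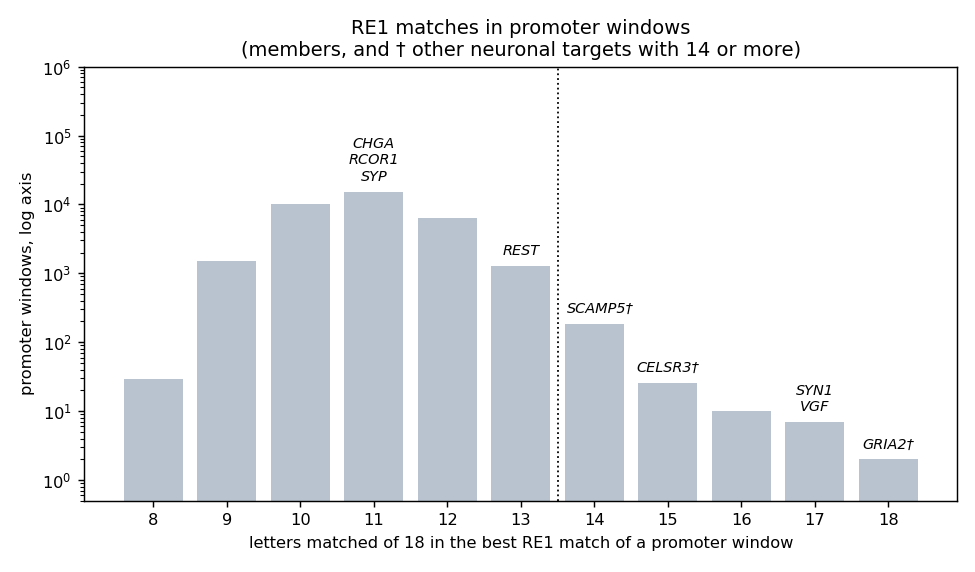
The x axis gives the letters matched of 18 in the best RE1 match of each promoter window, and the bars give the number of windows on a log axis. SYN1 and VGF sit at 17 letters and GRIA2 at 18, right of the dotted line at the minimum of 14, while most windows have 10 to 12 letters.

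The libraries held 21496117 to 23868323 counts, and a count of 3, the limit that a count of 0 allows, corresponded to 0.123 to 0.139 CPM (a gene's count relative to the TMM-scaled library total). This limit covers counting error only. Control replicate 1 had counts on 22403 genes against 20127 to 20674 in the other 5 libraries, and it differed most from its group, with a chi-square per degree of freedom of 20.9 and 21.4 to control replicates 2 and 3 against 5.44 between those 2. SRRM4 itself had 0 counts in every library, so the knockout could not be checked from the counts. The mesenchymal markers NT5E, ENG, THY1, CD44 and PDGFRA were present in every library, and their summed level was 931 to 949 CPM in control and 1107 to 1122 CPM in SRRM4 KO cells. Each of these 5 genes passed the test, against 41.6% of all genes in either direction. NT5E and CD44 were higher, with log2 fold changes of 0.52 and 1.39. ENG, THY1 and PDGFRA were lower, with log2 fold changes of -0.34, -2.43 and -1.54, so the summed level joins changes in both directions. ENG, THY1 and CD44 share exon bases with genes on the opposite strand. Of the haematopoietic markers, PTPRC had at most 2 counts, HLA-DRA had at most 11 counts, and CD34 (66 to 93 counts) and CD14 (324 to 392) were present in every library and did not pass (log2 fold changes of -0.02 and -0.08). In bulk RNA, fewer cells with a transcript and less of it per cell cannot be told apart.

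REST (ENSG00000084093; chromosome 4, 56907876 to 56966678, plus strand) was well expressed in both groups. It had 1765, 1811 and 1662 counts in control replicates 1 to 3 and 1515, 1585 and 1607 counts in SRRM4 KO replicates 1 to 3. In CPM these were 81.3, 83.9 and 74.4 in control and 67.9, 65.0 and 73.0 in SRRM4 KO cells. All 3 knockout libraries lay just below the 3 control libraries, as was so for 25.8% of all tested genes, and for 51.8% when either direction was counted. The mean and SD over 3 libraries were 79.9 ± 4.92 CPM for control against 68.6 ± 4.02 CPM for SRRM4 KO cells. The log2 fold change was -0.22 (95% interval -0.41 to -0.03), and the adjusted p of 0.0664 from edgeR's quasi-likelihood test over 15341 genes missed the threshold of 0.05. Among 12 alternatives the adjusted p ran from 0.0382 to 0.223 and passed the threshold in 3. These were upper-quartile normalization (0.0382), a minimum of 10 counts in every library (0.0445) and the fit without control replicate 1 (0.0467). Over these 12 the log2 fold change stayed between -0.27 and -0.18. The 30 tested genes within 5 Mb of REST had a median log2 fold change of -0.05. REST shares exon bases with NOA1 on the opposite strand, and non-stranded reads there cannot be assigned by strand.

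RCOR1 (ENSG00000089902; chromosome 14, 102592661 to 102730576), the CoREST protein that couples REST to KDM1A, was the member that passed the test. Its counts were 1430, 1243 and 1271 in control and 1552, 2019 and 1731 in SRRM4 KO cells. These correspond to 65.9, 57.6 and 56.9 CPM in control and to 69.6, 82.8 and 78.6 CPM in SRRM4 KO cells. The groups did not overlap, with the knockout libraries above, as in 25.9% of all tested genes, although control replicate 1 and SRRM4 KO replicate 1 lay close together. The level rose from 60.1 ± 4.999 to 77.0 ± 6.75 CPM (SD, n = 3 in each group), 1.28-fold. The log2 fold change was 0.36 (95% interval 0.15 to 0.57) with an adjusted p of 0.00914 (edgeR's quasi-likelihood test). Over all genes, 20.7% passed as higher and 20.9% as lower, so 1 of 4 tested members higher is near the background. Without SRRM4 KO replicate 2 the log2 fold change was 0.30 with an adjusted p of 0.0687, and over the 12 alternatives the adjusted p ran from 0.000314 to 0.0687. The 69 tested genes within 5 Mb of RCOR1 had a median log2 fold change of 0.20, and with the median of chromosome 14 subtracted the value of RCOR1 was 0.26. The part of the neighbourhood in this result was not tested.

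RCOR2, a CoREST protein of stem cells and neural progenitors, was close to absent. It had 8 counts in control replicate 2 and none in the other control libraries, and 1, 0 and 2 counts in the SRRM4 KO libraries. RCOR3, the remaining CoREST protein, stood at 6.17 CPM per kilobase of gene length in control cells against 9.69 for RCOR1, with 1351, 1076 and 1258 counts in control and 1161, 1216 and 1095 counts in SRRM4 KO cells. For RCOR3 the log2 fold change was -0.15 (95% interval -0.37 to 0.06; edgeR's quasi-likelihood test, adjusted p = 0.252), and it ran from -0.23 without control replicate 2 to -0.073 without control replicate 1. The ratio of RCOR1 to RCOR3 counts, which needs no library scaling, was 1.06, 1.16 and 1.01 in the control libraries and 1.34, 1.66 and 1.58 in the SRRM4 KO libraries. The ratio was thus higher in each knockout library than in any control library.

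Levels between genes were compared in CPM per kilobase of the gene length that the table gives. In control cells SCG2 stood highest of the set, at 15.5 ± 1.21 CPM per kilobase (SD, n = 3), above REST at 10.01 ± 0.616 and RCOR1 at 9.69 ± 0.806. REST and RCOR1 did not differ beyond their spread in control cells, with ranges of 9.32 to 10.5 and 9.17 to 10.6 CPM per kilobase. In SRRM4 KO cells RCOR1 (11.2 to 13.4 CPM per kilobase) lay above REST (8.14 to 9.14) and overlapped with SCG2 (12.7 to 15.2). Per length, the ratio of RCOR1 to REST was 1.04, 0.883 and 0.984 in the control libraries and 1.32, 1.64 and 1.39 in the SRRM4 KO libraries. SNAP25 followed far below, at 1.03 ± 0.263 in control and 0.707 ± 0.231 CPM per kilobase in SRRM4 KO cells. The other 6 members were at or below 0.141 CPM per kilobase on average in either group, and neighbours in their order overlapped in range. Per length, REST was at or above 71.7% of all tested genes in control and 67.0% in SRRM4 KO cells, and SNAP25 at or above 23.7% and 19.8%.

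**Figure D2:**
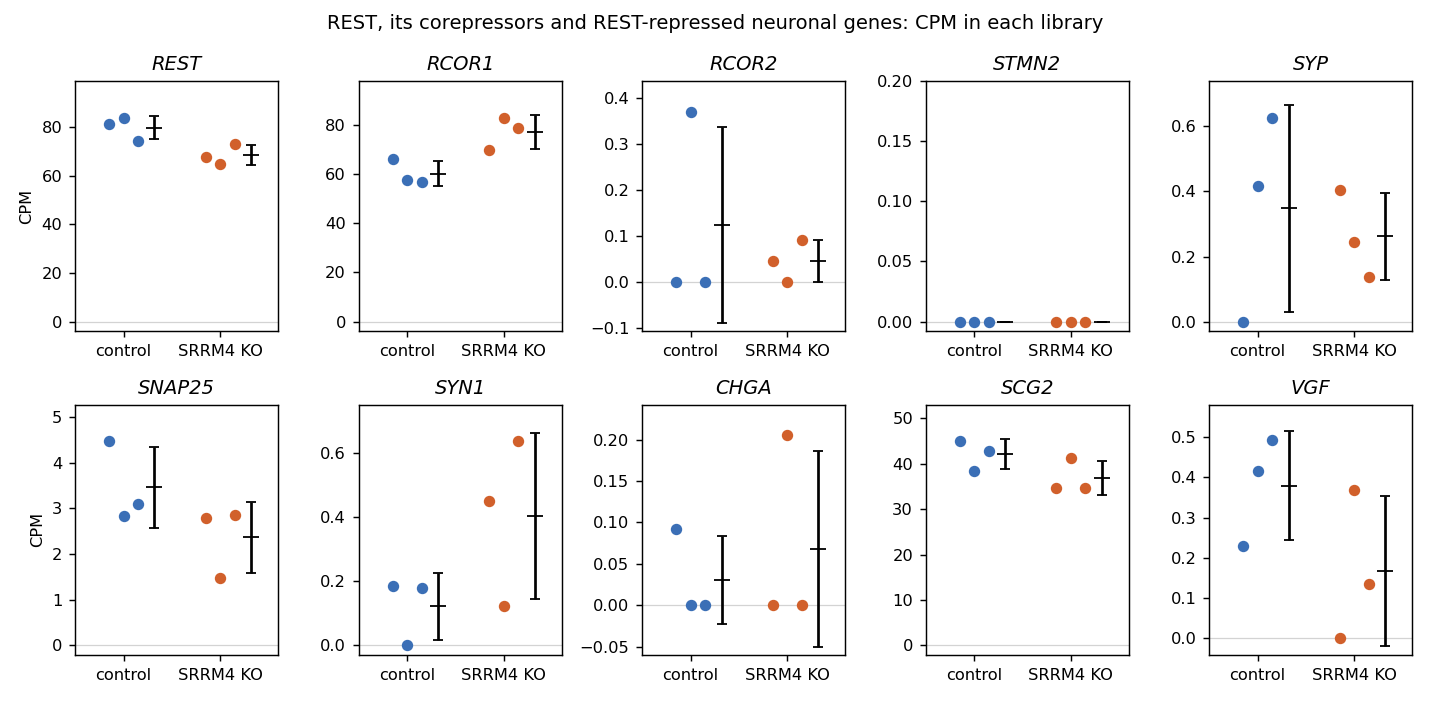
Each panel plots the CPM of 1 gene on a linear axis of its own, with 1 point per library (blue, control; orange, SRRM4 KO) and a black bar for the mean and SD of 3 libraries. The groups separate for RCOR1 and narrowly for REST, overlap for SCG2 and SNAP25, and RCOR2, STMN2, SYP, SYN1, CHGA and VGF stay below 1 CPM in every library.

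The neuronal members divided into SCG2, which was abundant, SNAP25, which was low, and 5 that were at or near the limit of detection or absent. SCG2 (ENSG00000171951; chromosome 2, 223596940 to 223602503) encodes secretogranin II, a granin of dense-core secretory granules. It had 975, 831 and 958 counts in control and 773, 1006 and 765 counts in SRRM4 KO cells. In CPM the control libraries were at 44.9, 38.5 and 42.9 and the SRRM4 KO libraries at 34.7, 41.3 and 34.7. SRRM4 KO replicate 2 lay within the control range and the groups overlapped. The log2 fold change was -0.19 (95% interval -0.42 to 0.04). Its adjusted p was 0.182 in edgeR's quasi-likelihood test, and 0.0957 to 0.403 over the alternatives. The genes of chromosome 2 had a median log2 fold change of -0.25, and with that subtracted the value of SCG2 was 0.06, so the sign of this small difference depends on the centring.

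SNAP25 (ENSG00000132639; chromosome 20, 10218830 to 10307418) encodes a SNARE protein of synaptic vesicle fusion. It had 97, 61 and 69 counts in control and 62, 36 and 63 counts in SRRM4 KO cells. Its mean and SD over 3 libraries were 3.46 ± 0.882 CPM for control against 2.37 ± 0.777 CPM for SRRM4 KO cells. The highest knockout library, at 2.86 CPM, lay above the lowest control library, at 2.83 CPM. For SNAP25 the log2 fold change was -0.55 with a wide 95% interval of -1.22 to 0.12 (edgeR's quasi-likelihood test, adjusted p = 0.182, and 0.137 to 0.499 over the alternatives). With single libraries left out it ran from -0.71 without SRRM4 KO replicate 3 to -0.32 without control replicate 1, the highest library, and -0.30 without SRRM4 KO replicate 2, the lowest.

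SYN1, which encodes synapsin I of the synaptic vesicle surface and carries the RE1 match shown above, had 4, 0 and 4 counts in control and 10, 3 and 14 counts in SRRM4 KO cells. VGF, which encodes a neuropeptide precursor and also carries a match, had 5, 9 and 11 counts in control and 0, 9 and 3 counts in SRRM4 KO cells. SYP, which encodes the vesicle membrane protein synaptophysin, had 0, 9 and 14 counts in control and 9, 6 and 3 counts in SRRM4 KO cells. The groups overlapped in each of these 3 genes. CHGA, which encodes chromogranin A, had 2 counts in control replicate 1, 5 counts in SRRM4 KO replicate 2 and none elsewhere. STMN2, which encodes a microtubule regulator of growing axons, had 0 counts in all 6 libraries, so that its level lay below the 0.123 to 0.139 CPM that a count of 0 allows. SYN1 shares exon bases with ARAF and SYP with SYP-AS1, both on the opposite strand. With no filter on low counts, RCOR2, SYP, SYN1, CHGA and VGF had adjusted p-values from 0.320 to 0.806 (edgeR's quasi-likelihood test over 27405 genes). No difference between the groups was detected for these genes.

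The corepressor partners of REST were abundant throughout. All 18 listed genes were tested, 6 passed as higher and 2 as lower, and none was beyond a log2 fold change of 1. Over all genes, 20.7% passed as higher and 20.9% as lower, and beyond that fold 5.45% and 7.14%. Without SRRM4 KO replicate 1, 3 instead of 6 partners passed as higher. Their median log2 fold change was 0.03, against -0.01 for all tested genes. Of the higher genes, KDM1A, SMARCA4, HDAC2, HDAC1 and CTBP1 are described here, of which KDM1A, SMARCA4 and CTBP1 were named after their values were seen.

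KDM1A, the lysine demethylase LSD1 that RCOR1 holds on the nucleosome, had 1789, 1764 and 1740 counts in control and 2409, 2632 and 2354 counts in SRRM4 KO cells. It rose from 80.7 to 108 CPM (log2 fold change 0.42, adjusted p = 0.000769, edgeR's quasi-likelihood test). HDAC1 and HDAC2, the histone deacetylases of both corepressor complexes, rose by 0.28 and 0.34 on the log2 scale, and their knockout libraries lay above their control libraries, as in 25.9% of all tested genes. SMARCA4 (BRG1), a chromatin remodelling ATPase, rose by 0.38. CTBP1, a corepressor, rose by 0.26 (adjusted p = 0.0386). Single libraries decided some of these calls. HDAC1 was not past the threshold without control replicate 3 or SRRM4 KO replicate 1 (adjusted p = 0.0581 and 0.0744). CTBP1 was not past it without control replicate 2 (0.103), SRRM4 KO replicate 1 (0.161) or SRRM4 KO replicate 2 (0.163), nor with the replicate number as a block (0.0655), upper-quartile normalization (0.0647) or at least 10 counts in every library (0.0501). The calls of KDM1A, SMARCA4 and HDAC2 held in all 12 alternatives.

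The 2 lower partners were SIN3B and GSE1. SIN3B, a SIN3 scaffold that binds the amino-terminal part of REST, had 1802, 2259 and 2300 counts in control and 1660, 1756 and 1472 counts in SRRM4 KO cells. SIN3B fell, with a log2 fold change of -0.45 (adjusted p = 0.00237, edgeR's quasi-likelihood test), while the 197 tested genes within 5 Mb of it had a median of 0.18. Its paralog SIN3A was at a log2 fold change of 0.04 and did not pass. GSE1, a subunit of complexes of KDM1A and histone deacetylases, went from 2392, 2114 and 2299 counts in control to 1335, 1372 and 1085 counts in SRRM4 KO cells. GSE1 thus fell by 0.91 (log2 fold change, with an adjusted p of 2.24e-06 in edgeR's quasi-likelihood test), in a region of chromosome 16 whose 87 tested genes had a median of -0.35. GSE1 shares exon bases with GINS2 on the opposite strand. Both calls held in all 12 alternatives. Among the higher partners, HDAC2 shares exon bases with HDAC2-AS2 and CTBP1 with CTBP1-DT and CTBP1-AS.

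The next list holds genes that act on the stability, partners or location of REST protein. Of 9 listed and tested genes, 4 passed as lower and none as higher, against 20.9% and 20.7% of all genes, and their median log2 fold change was -0.19. The 4 were PRICKLE1 and the phosphatases CTDSP1, CTDSP2 and CTDSPL, the last 3 named after their values were seen. PRICKLE1, a LIM domain protein that binds REST and takes part in its entry into the nucleus, had 391, 409 and 443 counts in control and 135, 160 and 197 counts in SRRM4 KO cells. It fell from 18.9 to 7.19 CPM (log2 fold change -1.40, 95% interval -1.74 to -1.05, adjusted p = 5.52e-06, edgeR's quasi-likelihood test). The small CTD phosphatases, which REST recruits to neuronal genes and of which CTDSP1 is known to stabilise REST, fell by 0.55 (CTDSP1), 0.36 (CTDSP2) and 0.42 (CTDSPL) on the log2 scale. All 3 knockout libraries lay below all 3 control libraries in each of these 4 genes, as in 25.8% of all tested genes, and each call held in the 12 alternatives. The tested genes within 5 Mb had medians of -0.10 for PRICKLE1, -0.23 for CTDSP1, -0.11 for CTDSP2 and 0.09 for CTDSPL. PRICKLE1 shares exon bases with PPHLN1, and CTDSP1 with AC021016.3, on the opposite strand. The ubiquitin ligase subunits BTRC and FBXW11, which mark REST for breakdown, were at log2 fold changes of 0.06 and -0.12 and did not pass.

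Of the splicing regulators that bear on the REST exon, SRRM4 had 0 counts and its relative SRRM3 had 8 to 27 counts in every library (log2 fold change -0.22, 95% interval -1.45 to 1.01). PTBP1, a repressor of neuronal exons outside neurons, had 6289, 7513 and 7817 counts in control and 10249, 11119 and 9357 counts in SRRM4 KO cells. PTBP1 rose by 0.44 in log2 fold change (edgeR's quasi-likelihood test, adjusted p = 0.00067), beside a median of 0.18 for the 134 tested genes within 5 Mb. Its neuronal paralog PTBP2 was low, with 207 to 314 counts, and had a log2 fold change of 0.29 (95% interval -0.04 to 0.62).

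**Figure D3:**
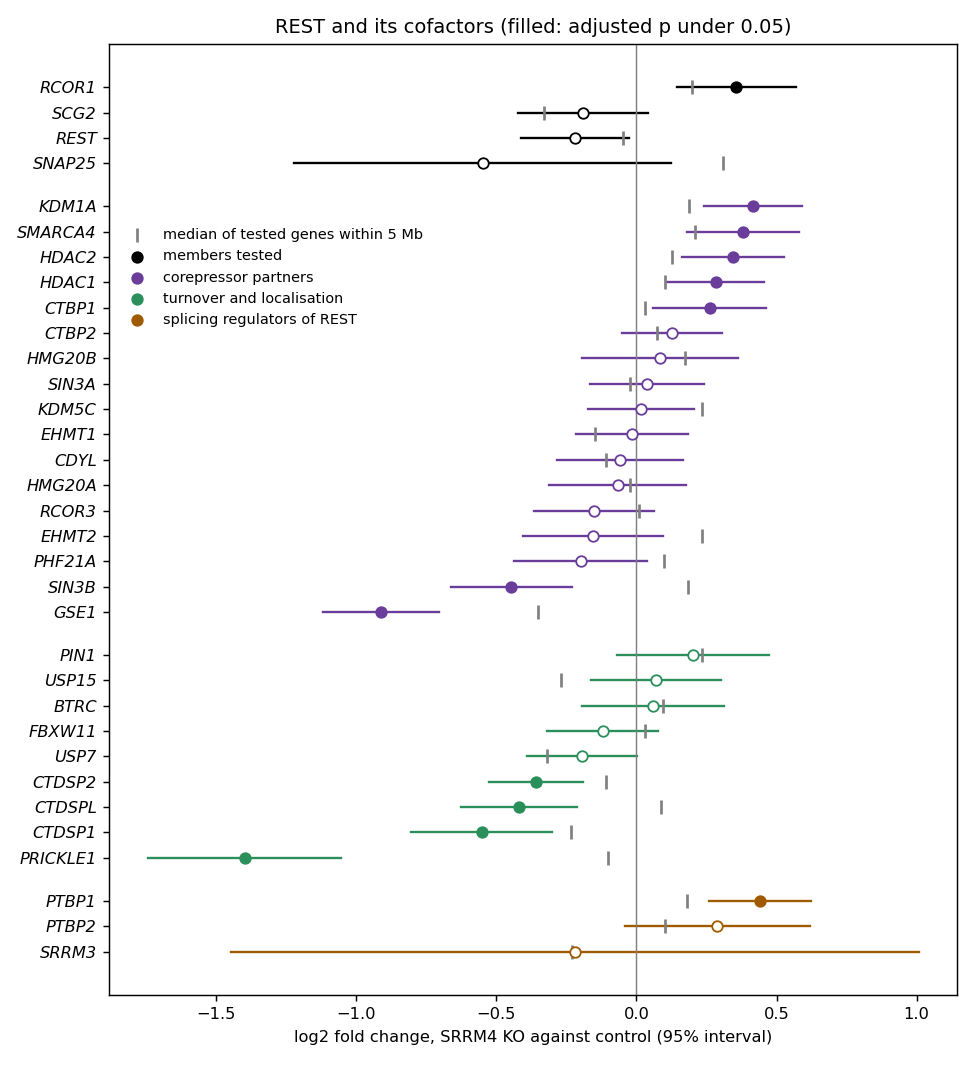
The x axis gives the log2 fold change of SRRM4 KO against control with its 95% interval for the tested members, corepressor partners, genes of REST turnover and localisation, and splicing regulators; filled points passed an adjusted p of 0.05 and grey ticks give the median of tested genes within 5 Mb. RCOR1 and KDM1A lie right of 0, GSE1 and PRICKLE1 left of it, and the intervals of SCG2 and SNAP25 cross 0.

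A list of 35 other neuronal genes described as REST targets was followed in the same libraries. No count at all was found in 8 of them, 27 had at least 1 count, and 13 could be tested. Of these 13, 3 passed as higher and 7 as lower, with 1 higher and 5 lower beyond a log2 fold change of 1. Over all genes, 20.7% passed as higher and 20.9% as lower, and 5.45% and 7.14% beyond that fold. Some of these genes entered the test only through the control libraries in which they had counts, so these counts are a description. With at least 10 counts in every library, 3 genes of the list passed as lower and 1 of them beyond a log2 fold change of 1.

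L1CAM, a neural cell adhesion molecule, had 372, 495 and 526 counts in control and 48, 45 and 23 counts in SRRM4 KO cells. It fell 12.5-fold, from 21.2 to 1.68 CPM (log2 fold change -3.65, adjusted p = 7.36e-09, edgeR's quasi-likelihood test), while the 72 tested genes within 5 Mb had a median of 0.33. GRIN2A, a subunit of the NMDA receptor, fell by 2.96, with 42, 43 and 52 counts in control and 4, 6 and 8 counts in SRRM4 KO cells. UNC13A, which primes synaptic vesicles, fell by 2.18, with 42, 52 and 50 counts in control and 7, 12 and 14 counts in SRRM4 KO cells. AP3B2, a neuronal adaptor subunit, had 15, 25 and 20 counts in control and 3, 6 and 1 counts in the SRRM4 KO libraries. It entered the test only through its control counts, with a log2 fold change of -2.62. With single libraries left out this value ran from -3.27 without SRRM4 KO replicate 2 to -2.23. The -3.27 rests on knockout counts of 3 and 1, no higher than the 3 counts that a count of 0 allows. The size of the fall in AP3B2 is therefore uncertain. BEX1 had 17, 11 and 13 counts in the control libraries and no count in any SRRM4 KO library, at least 4.76-fold lower against 3 counts per library. L1CAM shares exon bases with LCA10, and NEFM, described next, with AF106564.1, on the opposite strand. AP3B2 and BEX1 were named after their values were seen.

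In the other direction NEFM, the medium neurofilament subunit, had 23, 14 and 28 counts in control and 63, 63 and 96 counts in SRRM4 KO cells. NEFM rose with a log2 fold change of 1.71 (adjusted p = 0.00144, edgeR's quasi-likelihood test), beside a median of 0.18 for the 65 tested genes within 5 Mb. CELSR3, a cadherin of axon guidance, rose by 0.56 on the log2 scale. CELSR3 carries an RE1 match, as does SCAMP5, a vesicle membrane protein, which fell by 0.49. GRIA2, whose promoter window matched all 18 letters, had 2, 0 and 9 counts in control and 0, 0 and 1 counts in SRRM4 KO cells and was not tested. Among the more abundant genes of the list, BDNF, a neurotrophin, was at a log2 fold change of -0.10 (95% interval -0.31 to 0.11) and SCN2A, a sodium channel, fell by 0.37. SCN2A was not past the threshold without control replicate 1 (adjusted p = 0.0970), SRRM4 KO replicate 1 (0.0813) or SRRM4 KO replicate 2 (0.124), and SCAMP5 not without control replicate 2 (0.0756), control replicate 3 (0.0615) or SRRM4 KO replicate 1 (0.0767). SCAMP5 shares exon bases with RPP25 and BDNF with BDNF-AS, on the opposite strand. CELSR3, SCAMP5, BDNF, SCN2A and GRIA2 were named after their values were seen.

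**Figure D4:**
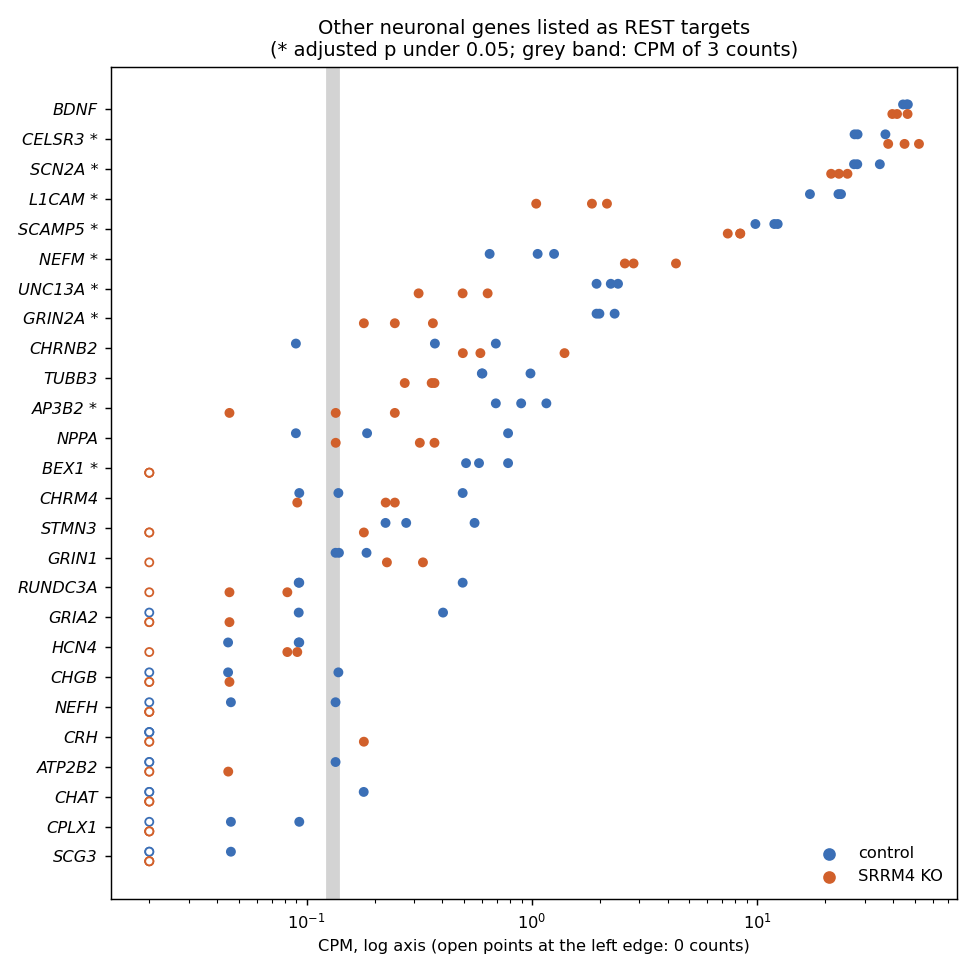
Rows are other neuronal REST targets with at least 1 count, and each point is the CPM of 1 library on a log axis (blue, control; orange, SRRM4 KO), with 0 counts drawn as open points at the left edge and a grey band at the CPM of 3 counts. L1CAM, UNC13A and GRIN2A lie lower in the knockout libraries and NEFM higher, while many rows sit at or left of the band.

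Markers of neurons as a cell type were mostly low or absent, apart from MAP2 and POU3F2. Of 13 listed genes, 4 had 0 counts in every library, NEUROD1, INSM1 and DCX among them, and 3 genes, MAP2, NEUROG2 and POU3F2, were tested. The summed level of the list was 74.5 to 94.5 CPM in control and 85.8 to 91.7 CPM in SRRM4 KO cells, most of it MAP2. POU3F2, a neural transcription factor, had 175, 168 and 170 counts in control and 512, 615 and 518 counts in SRRM4 KO cells, and its log2 fold change was 1.61 (adjusted p = 1.29e-07, edgeR's quasi-likelihood test). MAP2 (log2 fold change -0.21) did not pass. NEUROG2, a proneural transcription factor, had 19, 11 and 25 counts in control and 37, 39 and 41 counts in SRRM4 KO cells. With a log2 fold change of 1.02 it missed the threshold (edgeR's quasi-likelihood test, adjusted p = 0.0694), and passed with at least 10 counts in every library (0.0319, with 0.0319 to 0.209 over its alternatives). NEUROG2 shares exon bases with AC023886.1 on the opposite strand. NEUROG2 and MAP2 were named after their values were seen.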

How the data were processed

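Total RNA of UE7T-9 control and SRRM4 KO cells was sequenced as non-stranded mRNA-seq, 3 libraries in each group, grouped and numbered by their titles. The authors deposited raw counts per gene without normalization. The submitters' processing notes name HISAT2 2.0.5, featureCounts 1.5.0-p3 and DESeq2. Options and the genome build are not given in the sources used here, so reads of overlapping or near-identical genes carry an uncertainty. All 58735 gene IDs were found in GENCODE release 29 (GRCh38), 58724 with the same start and end.

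The groups were compared with edgeR 4.0.16 in R 4.3.3 (TMM, filterByExpr, prior count 0.125, quasi-likelihood test, two-sided) over 15341 genes with Benjamini-Hochberg adjustment. A gene passed with an adjusted p under 0.05. The 95% intervals use a standard error computed as the size of the log2 fold change divided by the square root of F, and CPM refer to TMM-scaled library sizes. The precision is limited by the 21496117 to 23868323 counts per library. In counts simulated for this comparison (15029 genes tested), edgeR recovered 99 of 100 genes changed by 2 and 72 of 100 changed by 1 on the log2 scale, and passed 8 others. The changed genes were drawn from those with a mean above 1 CPM. These rates therefore do not cover genes below that level or changes smaller than 1.

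The members and lists were chosen with earlier results of these data known, and the lists were written by hand. Besides the members, RCOR3, the splicing regulators and the cell type markers, the rule for named genes takes from each list up to 3 passing genes per direction beyond a log2 fold change of 1, those of highest mean CPM, or, in a list with none beyond it, up to 2 per direction. For REST and SCG2 it also takes the 3 genes of most similar pattern. Tried besides were a block for the replicate number, DESeq2 1.42.0, scaling by its size factors or by the upper quartile, testing all genes or those with 10 or more counts in each library, and each library left out in turn, and for members the subtraction of the chromosome median. No block was used in the fits reported, since the replicate numbers name no shared culture or day. Libraries of a group differed by more than sampling noise, with a chi-square per degree of freedom from 4.93 to 9.13, and of 20.9 and 21.4 for the pairs with control replicate 1. Some listed genes are counted in the list totals and are not reported here by name or drawn.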

Additional observations from a re-analysis of the deposited data

How the results depend on the processing

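The number of members that passed as higher was 1 under each normalization, filter and tool, and 0 to 1 with single libraries left out (0 without SRRM4 KO replicate 2, where RCOR1 was lost). The number that passed as lower was 0, but 1 (REST) with upper-quartile normalization and 1 with at least 10 counts in every library, and 0 to 1 with single libraries left out. With at least 10 counts in every library, 4 instead of 9 genes of all lists together, cell type markers included, passed as lower beyond a log2 fold change of 1, because genes with few counts in the knockout libraries were not tested, and NEUROG2 passed as higher. Of the single genes named, SRRM3 changed sign without control replicate 3 (0.40) and without SRRM4 KO replicate 1 (0.040), with a range of -0.49 to 0.40 over the libraries left out. CD34 did so without control replicate 1 (0.0062), control replicate 3 (0.075) or SRRM4 KO replicate 3 (0.075), with a range of -0.14 to 0.075. Neither had passed the test. SNAP29 was not past the threshold without SRRM4 KO replicate 2 (adjusted p = 0.0569; 0.00274 to 0.0569 over its alternatives).

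With the replicate number as a block, 6125 genes passed, 5990 of them among the 6384 of the fit without it. The members gave 1 higher and 0 lower under the block. Deviations of libraries with the same number correlated at -0.11, 0.13 and -0.14, and control replicate 1 correlated best with SRRM4 KO replicate 3 (0.28). The labels do not say whether libraries of the groups share a culture or batch, and these correlations cannot decide it. The block changed the call of CTBP1 and of no other gene for which the alternatives were run; SIN3A, BTRC, FBXW11, MAP2, SYPL1, SYPL2, SNAP23 and SNAP47 were not among these. For members with few counts, depth limits how small a difference could be seen.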

Other observations

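Relatives of the members and genes of regulated secretion gave further values. Of 13 paralogs, 7 were tested, 1 passed as higher and 1 as lower, against 20.7% and 20.9% of all genes. STMN1, the widely expressed relative of the absent STMN2, had 4504, 4455 and 4821 counts in control and 9014, 9818 and 8998 counts in SRRM4 KO cells, a log2 fold change of 0.95 (adjusted p = 6.52e-08, edgeR's quasi-likelihood test). SNAP29, a SNARE protein outside the synapse, fell by 0.39 on the log2 scale and shares exon bases with PI4KA on the opposite strand. SYPL1, SYPL2, SNAP23 and SNAP47 were tested and did not pass.

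Of 14 genes of granins and regulated secretion, 9 were tested, 2 passed as higher and 2 as lower, against 20.7% and 20.9% of all genes. PCSK1N entered the test only through its control counts, and with at least 10 counts in every library 1 gene passed as lower. STX1A, the syntaxin that pairs with SNAP25, had 107, 193 and 113 counts in control and 344, 322 and 273 counts in SRRM4 KO cells. The log2 fold change of STX1A was 1.12 (adjusted p = 0.000572, edgeR's quasi-likelihood test). It was 0.97 without control replicate 1 and 0.98 without control replicate 3, in a range of 0.97 to 1.45 over the libraries left out. STX1A shares exon bases with BUD23 on the opposite strand. SV2A, a synaptic vesicle protein, rose by 0.75 and CPE, which trims peptide hormones, fell by 0.56 on the log2 scale; both were named after their values were seen. PCSK1N, an inhibitor of a prohormone convertase, had 18, 16 and 27 counts in the control libraries and no count in any SRRM4 KO library, at least 7.06-fold lower against 3 counts per library.

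By the distance between log2 CPM profiles centred over the 6 libraries, the protein-coding genes most like REST were PTPN9, GIT2 and UFSP2 (root mean square distance 0.0316, 0.0346 and 0.0378), and those most like SCG2 were ASB8, LRRC17 and TUBGCP3 (0.0449, 0.0451 and 0.0505).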
